A study of Mus musculus with 10 samples.

Results

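The TGF-beta and activin signaling genes described here are Tgfb1, Tgfb2, Tgfb3, Tgfbr1, Tgfbr2, Tgfbr3, Inhba, Smad2, Smad3 and Tgfbi. They were chosen by name, with earlier results of these data known, and all 10 were found among the 47729 mouse genes of the count table. Their RNA was measured by RNA sequencing of forelimb buds from 10 embryos at embryonic day 11.5 to 12, 5 with a conditional knockout of Cxxc1 and 5 controls. All 5 knockouts are labelled Prx1Cre with floxed Cxxc1 on both alleles. The Prx1Cre driver acts in limb bud mesenchyme, so ectoderm, vessels, blood, nerve and migrating muscle precursors of the bud are outside its main reach. Of the controls, control 1 carried Prx1Cre with 1 floxed and 1 wild-type allele, controls 2 and 4 carried no Cre and 1 floxed allele, and control 3 carried no Cre and 2 floxed alleles. Control 5 had 2 floxed alleles and a Cre status marked with a question mark. Knockouts and controls came from the same 4 litters. Litter A gave knockouts 1 and 2 and controls 1 and 2, and litters B, C and D gave replicates 3, 4 and 5 of each group. Somite stage was 49 to 51 in both groups.

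TGF-beta ligands are secreted in a latent form bound to matrix proteins and are freed by integrins and thrombospondin. The free ligand binds the type II receptor TGFBR2, which activates the type I receptor TGFBR1, and the betaglycan TGFBR3 presents ligand to the pair. Activin A, a dimer made from the Inhba product, uses activin receptors, and both branches phosphorylate SMAD2 and SMAD3, which enter the nucleus with SMAD4. In the limb bud the pathway is known for its roles in condensation of mesenchyme and in forming tendons and joints.

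CXXC1, the product of the targeted gene, recognises CpG free of methylation and is a subunit of SET1 complexes, which methylate lysine 4 of histone H3. For this reason the upstream sequences of the ligand gene that rose and of 2 ligand genes that fell are shown, with every CpG in capitals. Each runs 5′ to 3′ over the 250 bases before the RefSeq start (GRCm38.p6) on the strand of the gene, which is chr7:25686752-25687001 (plus) for Tgfb1, chr1:186705990-186706239 (minus) for Tgfb2 and chr13:16011601-16011850 (plus) for Inhba.
Tgfb1: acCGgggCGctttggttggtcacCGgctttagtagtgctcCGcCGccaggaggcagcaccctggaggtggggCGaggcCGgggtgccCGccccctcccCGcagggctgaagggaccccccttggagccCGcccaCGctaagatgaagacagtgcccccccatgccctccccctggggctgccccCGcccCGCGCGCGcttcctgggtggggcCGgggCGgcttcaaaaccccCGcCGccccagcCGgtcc
Tgfb2: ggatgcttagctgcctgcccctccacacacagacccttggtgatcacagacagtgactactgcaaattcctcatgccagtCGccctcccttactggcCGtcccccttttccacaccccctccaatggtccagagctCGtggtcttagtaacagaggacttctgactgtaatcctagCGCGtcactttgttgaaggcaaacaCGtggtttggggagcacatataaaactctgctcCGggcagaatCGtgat
Inhba: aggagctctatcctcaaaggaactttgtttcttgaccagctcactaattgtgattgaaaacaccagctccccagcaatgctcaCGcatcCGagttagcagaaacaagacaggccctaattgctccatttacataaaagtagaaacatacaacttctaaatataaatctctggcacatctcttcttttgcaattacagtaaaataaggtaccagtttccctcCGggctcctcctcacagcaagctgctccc
The letters CG, which read the same on both strands, occurred 21 times upstream of Tgfb1, 8 times upstream of Tgfb2 and 3 times upstream of Inhba. Of the 32841 RefSeq promoters of the same length, 16.4% held at least as many as Tgfb1, 43.0% at least as many as Tgfb2 and 71.0% at least as many as Inhba, and the median was 6. Of the other members with an entry, Tgfbr1 held 29 CpG at its first start and 3 at another, Smad3 22, Tgfbi 15 and Tgfbr2 12. In all, 7 of the 10 members matched an entry. A CpG count describes these letters and says nothing of binding or methylation in the buds.

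Total counts were 33274855 to 49881126 per knockout library and 44170158 to 49001179 per control library. At 3 counts, a count of 0 allowed a level of 0.0573 to 0.0905 CPM, the unit of level used here (counts relative to the scaled library size), and the lowest count of any member was 17. Cxxc1 itself was lower in every knockout, at 75.2 ± 1.23 CPM in knockouts and 96.7 ± 6.88 CPM in controls (SD, n = 5 each). Reads were counted over the full gene, so the deleted exons were not seen separately. Markers of limb mesenchyme, among them Prrx1, Pdgfra and Lhx9, were present in every library. Their summed level was lower in the knockouts, at 1153 to 1288 CPM, against 2109 to 2243 CPM in controls. Of these markers 6 of 10 fell, while Twist1, Msx1, Lhx2 and Tbx2 did not pass. The mean of Msx1 was higher in knockouts (179.8 ± 27.5 CPM, against 149.4 ± 30.7 CPM in controls). By the rule of these counts (edgeR, adjusted p below 0.05), 17.1% of all genes tested were called lower and 18.1% higher. Macrophage markers rose in 12 of 12 (summed 222.3 to 260.4 CPM in knockouts, 59.8 to 74.6 CPM in controls), and Csf1r, Mrc1 and Cx3cr1 had the highest levels. Endothelial markers rose in 8 of 10, Cdh5 and Kdr among them but not Pecam1 (0.14, adjusted p = 0.115 by edgeR), which did not pass (summed 342 to 396 CPM in knockouts, 275 to 320.5 CPM in controls). Ectoderm markers rose in 6 of 10, with Krt5 and Cdh1 called and Krt14 not (0.11, adjusted p = 0.634 by edgeR; summed 538 to 642 and 299 to 489 CPM). Erythroid markers, Hbb-y, Hba-a2 and Hba-x among them, rose in 9 of 10 (summed 3824 to 7970 and 3052 to 3613 CPM). Muscle precursor markers rose in 5 of 8, with Met and Myod1 called and Myog not (-0.23, adjusted p = 0.514 by edgeR; summed 115 to 216 and 102 to 128 CPM). Not all genes of other lineages were higher. Sox10 and Mitf, both of neural crest lineages and singled out after their values were seen, fell (log2 fold change -0.84, SE 0.20, and -0.70, SE 0.16). No marker of these 6 lists was at 0 in any library. Xist was high in knockout 3 and control 1 alone.

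In the knockout buds, most of the TGF-beta and activin genes were lower and the ligand gene Tgfb1 was higher. Inhba fell to 37.04% of its control mean, Tgfbi to 58.0%, Tgfb2 to 59.3%, Tgfb3 to 67.0%, Tgfbr1 to 75.6% and Smad2 to 91.2%, while Tgfb1 rose to 155% of its control mean. Tgfbr2, Tgfbr3 and Smad3 did not pass the test. All 10 members passed the filter on low counts. Genes were tested with the quasi-likelihood F test of edgeR, p-values were adjusted by the Benjamini-Hochberg method over all 20562 genes tested, and a gene was called below 0.05. By this rule 6 members were called lower, against a background of 17.1% of all genes, and 1 higher, against 18.1%. In all 7 of 10 (70.0%) were called, where 35.2% of all genes were. As the members were chosen with earlier results of these data known, this share is not that of an independent set. The groups did not overlap in 5 members (Tgfb2, Tgfb3, Tgfbr1, Smad2 and Tgfbi), against 25.3% of all genes tested. The median log2 fold change of the members was -0.28, where that of all genes was -0.001. Of the calls over the whole table, 51.3% were higher in knockouts with TMM scaling and 62.2% when libraries were scaled by size only, which moved the median of all genes to 0.05.

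**Figure D1:**
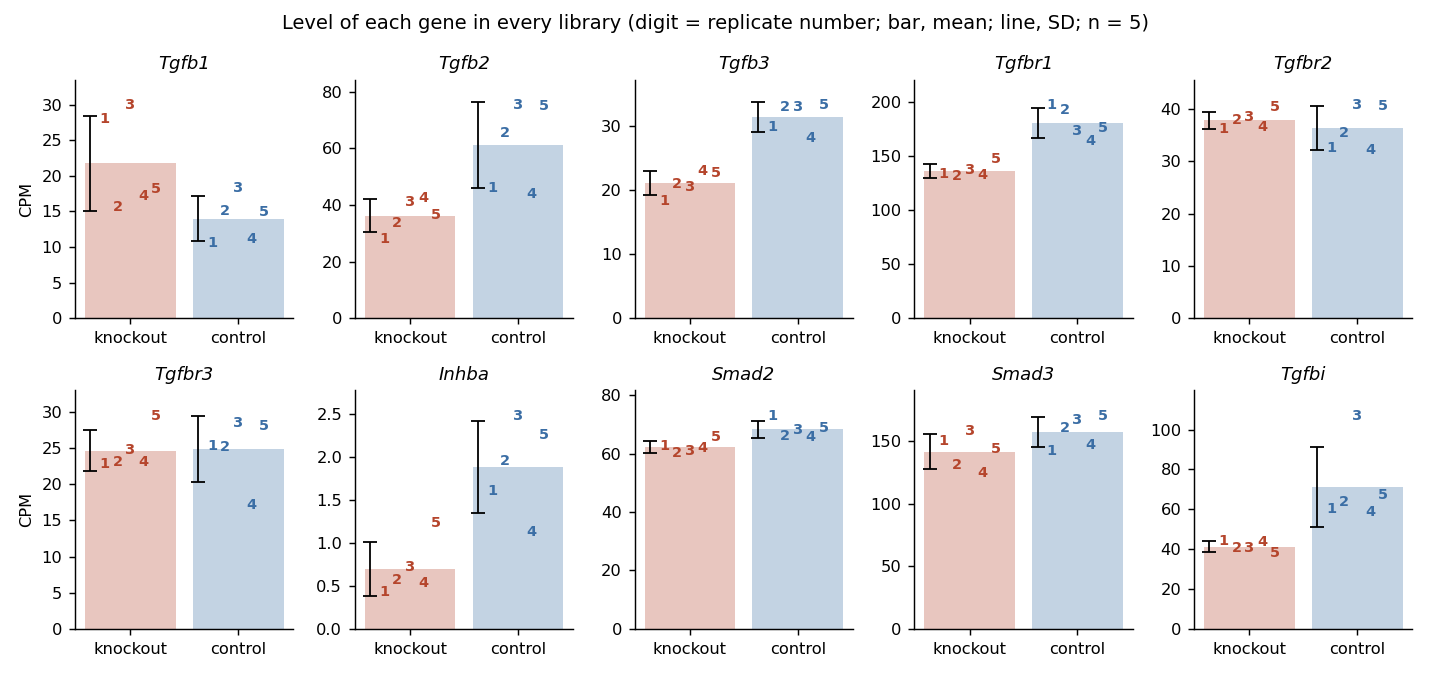
Level of the 10 genes in CPM (linear axes from 0) in the knockout and control libraries; each digit is the replicate number of 1 library, bars are means and lines SD (n = 5 per group). All 5 knockout libraries lie below all 5 control libraries for Tgfb2, Tgfb3, Tgfbr1, Smad2 and Tgfbi, and Tgfb1 is high in knockouts 1 and 3.

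Within the litters the called genes kept 1 direction, which calling them from these same libraries largely fixes. How many of all genes did so was not counted. Tgfb1 was higher in the knockouts of all 4 litters, by 0.29 to 0.73 on the log2 scale. Tgfb2, Tgfb3, Tgfbr1, Inhba, Smad2 and Tgfbi were lower in all 4, as was Smad3, which was not called. The size differed most for Tgfb2, which was lower by the least in litter C and by the most in litter D (knockout minus control, -0.05 and -1.04). Tgfbr2 and Tgfbr3 were higher in 2 litters and lower in 2. Control 1, the control with Prx1Cre and 1 floxed allele, lay within the range of the other controls for Tgfb2, Tgfb3, Tgfbr2, Tgfbr3, Inhba and Tgfbi. It was just below that range for Tgfb1 (10.6 CPM, against 11.1 to 18.3 CPM) and Smad3 (142.6 CPM, against 147.5 to 170.3 CPM), and above it for Tgfbr1 (196.6 CPM, against 163.8 to 192.2 CPM) and Smad2 (72.9 CPM, against 65.8 to 68.9 CPM).

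**Figure D2:**
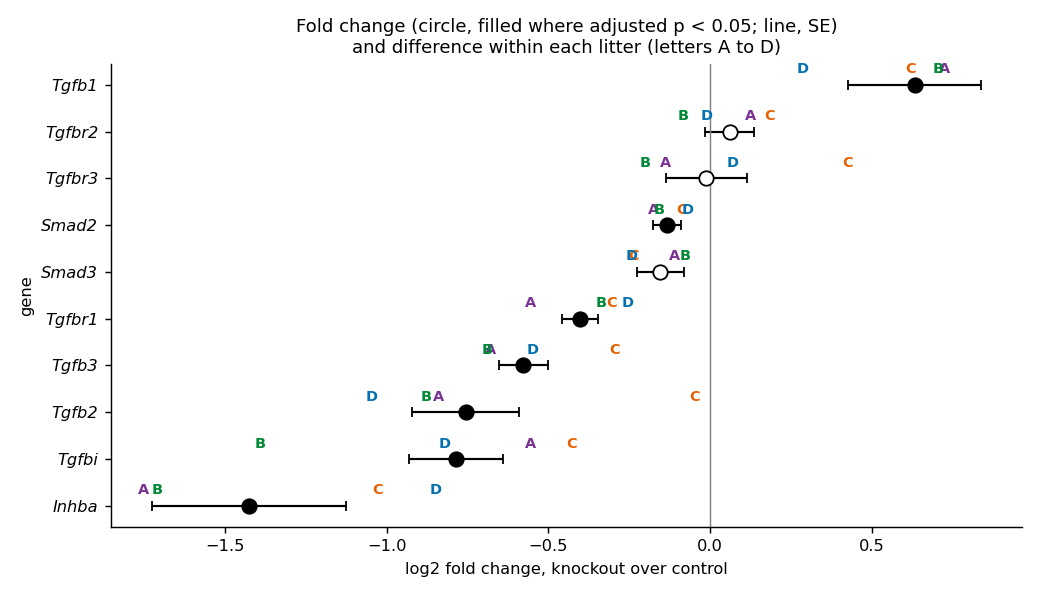
Log2 fold change of knockout over control for each gene (circles, filled where the adjusted p is below 0.05, with SE), and the knockout minus control difference within litters A to D (letters). Tgfb1 lies at 0.63, Inhba at -1.42, and the litter C letter of Tgfb2 lies next to 0.

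Tgfb1 (ENSMUSG00000002603, chromosome 7, 25687002 to 25705077, plus strand, GRCm38) encodes the TGF-beta ligand found most widely in blood and immune cells. It was at 28.0, 15.6, 29.9, 17.1 and 18.2 CPM in knockouts 1 to 5, against 10.6, 15.1, 18.3, 11.1 and 14.9 CPM in controls 1 to 5. Knockouts 1 and 3 stood above all controls, while knockouts 2, 4 and 5 lay inside the control range, so the groups overlapped. The log2 fold change was 0.63 (SE 0.21, edgeR, adjusted p = 0.0306). The call was lost without knockout 1 (0.53, adjusted p = 0.0757), knockout 3 (0.50, 0.080), control 1 (0.55, 0.0738) or control 4 (0.56, 0.0696), without litter A (0.55, 0.159), against the Cre-free controls alone (0.55, 0.130) and without knockout 3 and control 1 together, the pair with high Xist (0.41, 0.153). Macrophage markers, whose cells are known to make this ligand, summed to 223.0, 227.3, 224.1, 222.3 and 260.4 CPM in knockouts 1 to 5 and to 62.2, 59.8, 69.7, 60.9 and 74.6 CPM in controls 1 to 5. Their sum was highest in knockout 5 and nearly equal in the other knockouts, so it did not separate knockouts 1 and 3 from the rest, and its part in the rise of Tgfb1 was not tested. In bulk RNA of a bud, more cells of a type and more RNA per cell cannot be told apart.

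By the rule set for likeness, the genes whose log2 CPM followed Tgfb1 most closely over the 10 libraries were Mmp25 (Pearson r = 0.943), a membrane-anchored metalloproteinase gene, Wwc2 (r = 0.942) and Ptprg (r = 0.930), a receptor phosphatase gene. These r values describe 10 libraries of 2 groups and were picked as the highest of all genes tested. Mmp25 was at 2.57 and 2.96 CPM in knockouts 1 and 3, and at 1.70, 2.03 and 1.77 CPM in knockouts 2, 4 and 5, against 1.29, 1.69, 1.74, 1.04 and 1.33 CPM in controls 1 to 5. Mmp25 rose (log2 fold change 0.63, SE 0.20, edgeR, adjusted p = 0.0299) and Ptprg passed narrowly (0.29, SE 0.11, adjusted p = 0.0498), while Wwc2 did not pass (0.10, SE 0.04, adjusted p = 0.0943).

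Tgfb2 (ENSMUSG00000039239, chromosome 1, 186622792 to 186705989, minus strand) encodes the ligand whose receptor binding depends most on betaglycan. It was at 28.1, 33.4, 40.8, 42.3 and 36.3 CPM in knockouts 1 to 5, against 46.1, 65.4, 75.2, 43.8 and 74.9 CPM in controls 1 to 5. Every knockout was lower than every control, although controls 1 and 4 came close to the knockouts. The log2 fold change was -0.75 (SE 0.17, edgeR, adjusted p = 0.00371).

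Tgfb3 (ENSMUSG00000021253, chromosome 12, 86056745 to 86079041, minus strand), the ligand gene known from palate and tendon, was tighter within the groups. It was at 18.3, 21.0, 20.5, 23.0 and 22.7 CPM in knockouts 1 to 5, against 29.9, 32.9, 32.98, 28.2 and 33.3 CPM in controls 1 to 5. The gap between the highest knockout and the lowest control was larger than the whole range within either group. The log2 fold change was -0.58 (SE 0.08, edgeR, adjusted p = 0.000103). Genes on the opposite strand share 12.4% of its exon bases and 2.14% of those of Tgfb2, and whether counting used strand was not stated in the labels.

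Divided by exon length, the levels of the 3 ligand genes summed to 16.8 ± 1.54 CPM per kb in knockouts and 22.6 ± 3.87 CPM per kb in controls (SD, n = 5 each), with ranges of 15.1 to 19.0 and 18.1 to 26.4 that overlapped, and the sum was not tested. In knockouts Tgfb2 (6.25 ± 0.994) and Tgfb3 (6.23 ± 0.563) stood at about the same level and Tgfb1 at 4.32 ± 1.32 CPM per kb. In controls Tgfb2 (10.5 ± 2.64) and Tgfb3 (9.30 ± 0.675) did not differ beyond their spread, and Tgfb1 was below both at 2.78 ± 0.630 CPM per kb. The Tgfb2 share of the sum was 37.1 ± 4.03% in knockouts and 46.1 ± 3.96% in controls, a difference of -8.96 percentage points (exact two-sided permutation test over libraries, p = 0.0159, and 0.0238 adjusted over the 3 ratios tested). It was 30.7, 38.3, 37.1, 41.8 and 37.8% in knockouts 1 to 5, against 42.1, 47.0, 49.2, 41.8 and 50.3% in controls 1 to 5, so that only knockout 4 and control 4, the pair of litter C, met. The call was lost with the replicate block (exact test, adjusted p = 0.188), without litter A (0.300) and against the Cre-free controls alone (0.107), of which the first 2 cannot pass at their size. The Tgfb1 share was 25.6 ± 7.07% in knockouts and 12.2 ± 1.02% in controls, and the Tgfb3 share 37.3 ± 4.10% and 41.7 ± 4.48%. Shares sum to a fixed whole, so the lower Tgfb2 share also holds the higher level of Tgfb1 and is not a measure of Tgfb2 alone. The call of Tgfb1 was lost in 7 of 21 alternatives.

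**Figure D3:**
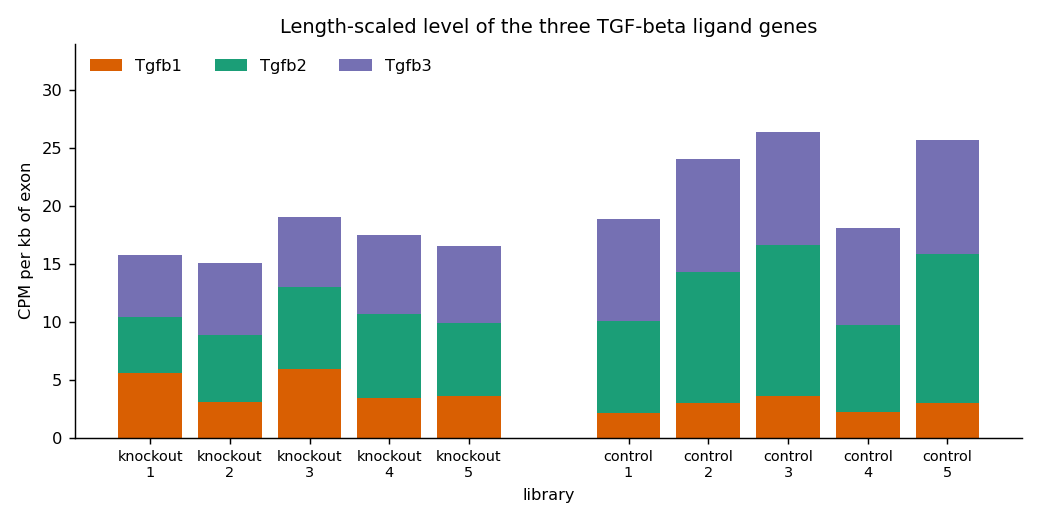
Level of Tgfb1, Tgfb2 and Tgfb3 in each library in CPM per kb of exon, stacked (linear axis from 0), 5 knockouts left and 5 controls right. The Tgfb1 segment is tallest in knockouts 1 and 3, and the Tgfb2 segment is taller in every control than in every knockout.

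Inhba (ENSMUSG00000041324, chromosome 13, 16011851 to 16031621, plus strand), the gene of the inhibin beta A chain that forms activin A, had the lowest level of the members and the largest fold change. It was at 0.424, 0.573, 0.724, 0.530 and 1.23 CPM in knockouts 1 to 5, against 1.60, 1.95, 2.47, 1.13 and 2.25 CPM in controls 1 to 5. Knockout 5 lay above control 4, and without these 2 libraries the groups were apart. The log2 fold change was -1.42 (SE 0.30, edgeR, adjusted p = 0.0029). Without litter A, 3 against 3, it no longer passed (-1.22, adjusted p = 0.0665).

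The genes most like Inhba over the 10 libraries were Serping1 (Pearson r = 0.989), an inhibitor of complement, Sgk1 (r = 0.987), a kinase gene induced by glucocorticoid and serum, and Dcc (r = 0.972), a netrin receptor gene. Sgk1 was at 6.83, 10.3, 10.8, 8.22 and 15.3 CPM in knockouts 1 to 5, against 21.5, 25.2, 32.6, 13.1 and 29.1 CPM in controls 1 to 5. In all 4 genes knockout 5 was the highest knockout and control 4 the lowest control, an order that choosing the genes by their likeness to Inhba largely fixes. Sgk1 (log2 fold change -1.24, SE 0.25), Serping1 (-0.57, SE 0.13) and Dcc (-2.25, SE 0.47) fell. Among the other members, control 4 was the lowest control for Tgfb2, Tgfb3, Tgfbr1, Tgfbr2, Tgfbr3, Smad2 and Tgfbi, and knockout 5 the highest knockout for Tgfbr1, Tgfbr2, Tgfbr3 and Smad2. Knockout 5 was the lowest knockout for Tgfbi and the middle one for Tgfb2. Control 4 and knockout 5 were both at somite stage 49, as was knockout 2, and the part of stage in this was not tested beyond the fit with stage as a term, in which Inhba stayed at -1.51.

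**Figure D4:**
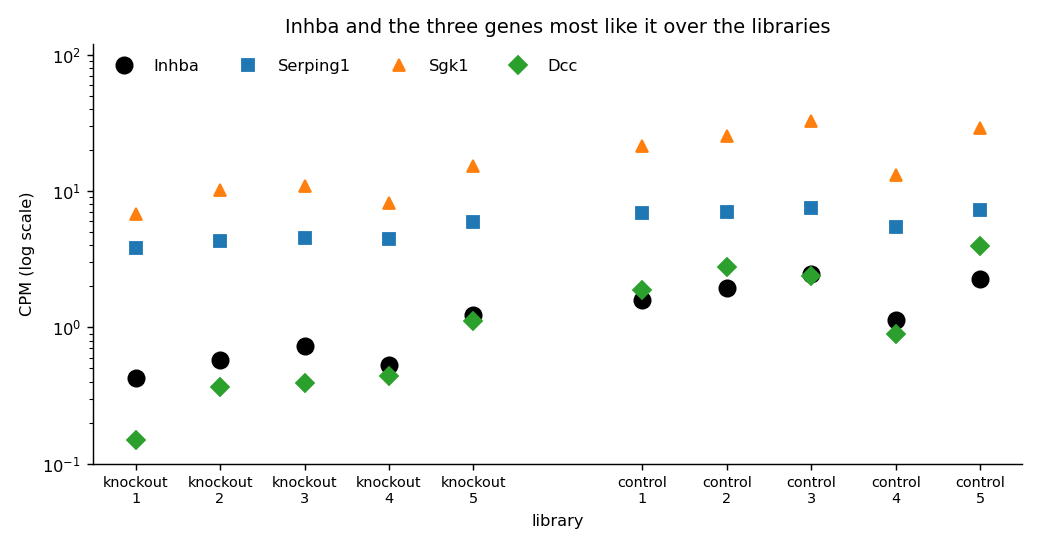
Level of Inhba and of the 3 genes most like it in each library in CPM (logarithmic axis), 5 knockouts left and 5 controls right. In each of the 4 genes knockout 5 is the highest knockout and control 4 the lowest control.

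Of the receptor genes, Tgfbr1 fell. Tgfbr1 (ENSMUSG00000007613, chromosome 4, 47353222 to 47414931, plus strand), the type I kinase that phosphorylates SMAD2 and SMAD3, was at 133.0, 131.7, 136.7, 132.6 and 147.3 CPM in knockouts 1 to 5, against 196.6, 192.2, 172.5, 163.8 and 175.8 CPM in controls 1 to 5. The groups did not overlap, and the log2 fold change was -0.40 (SE 0.06, edgeR, adjusted p = 0.000165). The 2 controls of litter A were the highest of all libraries.

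Tgfbr2 (ENSMUSG00000032440, chromosome 9, 116084293 to 116175360, minus strand), the ligand-binding type II kinase, was at 36.2, 37.9, 38.4, 36.5 and 40.3 CPM in knockouts 1 to 5, against 32.5, 35.5, 40.7, 32.2 and 40.6 CPM in controls 1 to 5. All knockouts lay within the control range. It was not called (log2 fold change 0.06, 95% interval -0.09 to 0.21, adjusted p = 0.577). Tgfbr3 (ENSMUSG00000029287, chromosome 5, 107106570 to 107289629, minus strand), the betaglycan gene, was at 22.8, 23.1, 24.8, 23.1 and 29.4 CPM in knockouts 1 to 5, against 25.3, 25.2, 28.5, 17.2 and 28.1 CPM in controls 1 to 5. It was not called either (-0.01, 95% interval -0.26 to 0.24, adjusted p = 0.957), and the sign of this value changed between alternatives.

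The balance of the 2 kinase genes shifted between the groups. The log2 ratio of Tgfbr2 to Tgfbr1 counts was -1.85 ± 0.03 in knockouts and -2.32 ± 0.22 in controls (SD, n = 5 each), a difference of 0.47 (exact two-sided permutation test, p = 0.00794, the smallest that 5 against 5 can give, and 0.0238 adjusted over the 3 ratios). It was between -1.88 and -1.80 in all 5 knockouts, against -2.60, -2.44, -2.08, -2.35 and -2.11 in controls 1 to 5. Every knockout was above every control. This call too was lost with the replicate block (difference 0.47, exact test, adjusted p = 0.188), without litter A (0.33, 0.300) and against the Cre-free controls alone (0.44, 0.107). The first 2 settings cannot pass at their size, as their smallest exact p is 0.0625 and 0.1. Against the Cre-free controls every knockout was again above every control, so the unadjusted p was the smallest that 5 against 3 can give. Per length, Tgfbr1 was the more abundant of the kinase genes in both groups, with 20.9 ± 0.986 CPM per kb in knockouts and 27.6 ± 2.11 in controls, where Tgfbr2 was at 4.62 ± 0.198 and 4.43 ± 0.510. Tgfbr3 was next at 3.77 ± 0.426 CPM per kb in knockouts and 3.80 ± 0.693 in controls.

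The transducer genes moved little. Smad2 (ENSMUSG00000024563, chromosome 18, 76241580 to 76310963, plus strand) was at 62.7, 60.1, 60.9, 61.9 and 65.7 CPM in knockouts 1 to 5, against 72.9, 66.0, 67.9, 65.8 and 68.9 CPM in controls 1 to 5. The groups were apart only narrowly, knockout 5 lying next to control 4. The log2 fold change was -0.13 (SE 0.04, edgeR, adjusted p = 0.0333). The call was lost in 14 of 21 alternatives, among them the replicate block by number (adjusted p = 0.0578) or by litter (0.0507) and scaling by library size only (-0.08, 0.191).

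Smad3 (ENSMUSG00000032402, chromosome 9, 63646767 to 63757994, minus strand) was at 151, 131, 159, 125 and 144 CPM in knockouts 1 to 5, against 143, 161, 167, 147 and 170 CPM in controls 1 to 5. The groups overlapped, and the gene was not called (log2 fold change -0.15, 95% interval -0.29 to -0.01, adjusted p = 0.123). It passed once knockout 3 and control 1 were left out (-0.23, adjusted p = 0.0327). Per length, Smad3 was the most abundant member in both groups, at 25.6 ± 2.48 CPM per kb in knockouts and 28.5 ± 2.20 in controls, though in controls it did not differ from Tgfbr1 beyond the spread. Smad2 was at 7.09 ± 0.243 CPM per kb in knockouts and 7.78 ± 0.326 in controls. The log2 ratio of Smad3 to Smad2 counts was 1.18 ± 0.14 in knockouts and 1.205 ± 0.14 in controls, a difference of -0.02 (exact two-sided permutation test, p = 0.825, and 0.825 adjusted over the 3 ratios).

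Tgfbi (ENSMUSG00000035493, chromosome 13, 56609523 to 56639562, plus strand) encodes a matrix protein first named for its induction by TGF-beta. It was at 44.1, 40.4, 40.7, 43.6 and 37.9 CPM in knockouts 1 to 5, against 60.3, 63.7, 106.8, 58.6 and 67.0 CPM in controls 1 to 5. The knockouts lay close together and below all controls, and control 3 stood far above the other controls. The log2 fold change was -0.79 (SE 0.15, edgeR, adjusted p = 0.00123), and -0.60 without control 3. Per length it was at 10.96 ± 0.67 CPM per kb in knockouts and 18.9 ± 5.33 in controls. Macrophages also express this gene, and their markers were higher in every knockout library. Their part in the level of Tgfbi was not tested.

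Outside the 10 members, 72 of 79 further genes of the pathway passed the filter on low counts, of which 29 fell and 11 rose. Scaled by library size only, 20 fell and 13 rose. The median log2 fold change was -0.14 over these 72 genes. The share called was 55.6%, beside 35.2% of all genes. These lists too were chosen with earlier results of these data known, which limits every share called that is given for them below.

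Of the other ligand genes, 7 of 11 were tested, 2 fell and 0 rose (median -0.19), and the 28.6% called was below the 35.2% of all genes. These were Inha, the inhibin alpha chain (3.67 ± 0.468 CPM in knockouts, 5.24 ± 0.929 CPM in controls, log2 fold change -0.51, SE 0.14), and Gdf11, a ligand of axial patterning (85.2 ± 7.29 and 97.0 ± 5.87 CPM, -0.19, SE 0.06). The Gdf11 call was lost in 9 of 21 alternatives and that of Inha without litter A. Of the other receptor genes, 6 of 8 were tested, 2 rose and 1 fell (median 0.32). The share called was 50.0%, beside 35.2% of all genes. Eng, the endoglin co-receptor of endothelium and macrophages, was at 39.3 ± 3.61 CPM in knockouts and 19.9 ± 5.14 CPM in controls (0.98, SE 0.15). Endothelial markers rose less (median log2 fold change 0.31) and macrophage markers more (1.86), and their part in the rise of Eng was not tested. The activin type I receptor gene Acvr1b rose by 0.23 (SE 0.05) and the type II receptor gene Acvr2a fell by 0.22 (SE 0.07) on the log2 scale, so the activin receptors moved in opposite senses by small amounts. The Acvr2a call was lost in 5 of 21 alternatives, among them the replicate block by number (adjusted p = 0.0607), and that of Acvr1b without litter A (0.14, adjusted p = 0.117).

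Of 17 genes that store and activate the latent ligand, 6 fell, 2 rose and 9 did not pass (median -0.25), so 47.1% were called, where 35.2% of all genes were. Thbs1, the thrombospondin that activates latent TGF-beta, was at 67.3 ± 8.55 CPM in knockouts and 121.7 ± 14.6 CPM in controls (-0.86, SE 0.10). Itgb8, the integrin chain that pairs with alpha v to free the ligand, was at 4.21 ± 0.42 CPM in knockouts and 8.35 ± 1.53 CPM in controls (-0.99, SE 0.13), and Ltbp4, a latent binding protein, at 17.2 ± 1.89 and 27.8 ± 3.92 CPM (-0.69, SE 0.10). For each of these 3 genes, picked for their small adjusted p, the groups did not overlap. That held for 7 of the 17 genes and 25.3% of all genes tested. Itgav, the gene of the alpha v chain, went the other way and was 1 of the 2 that rose. It was at 87.5 ± 10.4 CPM in knockouts and 69.0 ± 1.15 CPM in controls (0.34, SE 0.07), and was singled out after its values were seen. Nrros, which holds latent TGF-beta on macrophages and microglia and was singled out after its values were seen, was at 13.85 ± 2.36 CPM in knockouts and 7.51 ± 2.05 CPM in controls (0.88, SE 0.18), and the part of the macrophage markers in it was not tested.

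Among inhibitors and feedback genes, 6 of 15 fell and 2 rose (median -0.06), so 53.3% were called, where 35.2% of all genes were. Pmepa1 and Ldlrad4, both induced by TGF-beta and known to hold back SMAD signaling, had log2 fold changes of -0.59 (SE 0.10) and -0.64 (SE 0.14), both called lower. Emilin1, a matrix protein that restrains ligand processing, was at 132.1 ± 7.06 CPM in knockouts and 164.3 ± 9.57 CPM in controls (-0.32, SE 0.05). Of the Ldlrad4 exon bases, 52.1% are shared with genes on the opposite strand, so its count is less certain. Without litter A it did not pass (-0.57, adjusted p = 0.0684). Smad7, the inhibitory SMAD induced by TGF-beta, was at 29.8 ± 1.855 CPM in knockouts and 31.1 ± 3.003 CPM in controls and did not pass (-0.06, SE 0.07). It was singled out after its values were seen.

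Of 7 further transducers tested, 3 fell and 0 rose (median -0.12), and the 42.9% called was near the 35.2% of all genes. Smad4, the partner of SMAD2 and SMAD3, Map3k7, the kinase TAK1, and Zfyve9, which anchors SMADs to the receptor, had log2 fold changes of -0.15 (SE 0.05), -0.14 (SE 0.05) and -0.12 (SE 0.04). These small falls were lost in 10, 12 and 13 of 21 alternatives. For Zfyve9 these included the replicate block (adjusted p = 0.054 by number and 0.0507 by litter).

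Genes known as targets of TGF-beta moved both ways, and 11 of 20 fell while 5 rose (median -0.28). The share called was 80.0%, beside 35.2% of all genes. Sox9, the cartilage transcription factor, was at 19.3 ± 3.65 CPM in knockouts and 115.9 ± 29.6 CPM in controls (-2.59, SE 0.18). Fn1, the fibronectin gene, was at 391.8 ± 19.9 CPM in knockouts and 636.9 ± 38.8 CPM in controls (-0.70, SE 0.05), and Col1a2, a collagen chain, at 325.3 ± 21.0 and 641.4 ± 93.7 CPM (-0.98, SE 0.09). In these 3 genes, picked for their small adjusted p, the groups did not overlap. That held for 10 of the 20 targets and 25.3% of all genes tested. The 5 that rose, named after their values were seen, included Junb (0.94, SE 0.10) and Klf10 (0.32, SE 0.05), whose groups did not overlap. The others were Cdkn2b (0.78, SE 0.24), Hmga2 (0.34, SE 0.09) and Snai1 (0.26, SE 0.09), whose groups overlapped. The summed level of limb mesenchyme markers was lower in the same libraries (1153 to 1288 CPM in knockouts, 2109 to 2243 CPM in controls). The part of these markers in the falls of Sox9, Fn1 and Col1a2 was not tested.

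**Figure D5:**
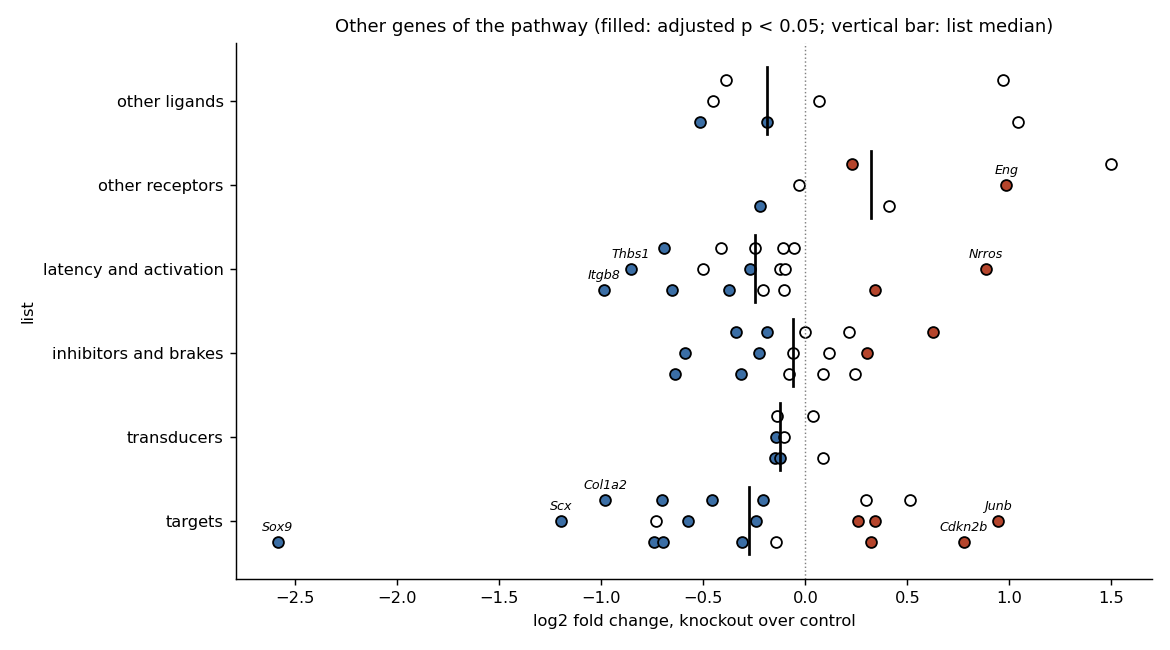
Log2 fold change of knockout over control for the 72 further pathway genes tested, in 6 lists (points, filled where the adjusted p is below 0.05, red higher and blue lower; vertical bars, list medians; labels where a called gene lies beyond 0.75). Called genes of latency and activation lie mostly left of 0, and Sox9 lies farthest left at -2.59.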

How the data were processed

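Forelimb bud RNA of 10 embryos was compared. The authors deposited estimated counts per Ensembl gene. The submitters' processing notes name DESeq2 1.16.1, Salmon 0.8.2, R 3.4.1 and mm10 without saying what each was for. Since 0.059% of these estimated counts held whole numbers, they were rounded before testing. The other deposited table held a signal that matched the rounded counts after division by a library factor (100% of values within 0.01), and served only as an alternative on the scale log2(value + 1). Columns of no sample numbered 0. Symbols and coordinates came from GENCODE M21 (GRCm38) and promoters from RefSeq. Of the gene IDs, 47224 of 47729 had a symbol.

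In edgeR 4.0.16 (R 4.3.3), filterByExpr was run with its settings of 10 for minimum count and 15 for minimum total. The first is applied as a CPM cutoff and need not be met in every library. TMM set the scaling, and glmQLFit with glmQLFTest compared the groups, with no covariate. SE was taken as |log2 fold change| over the root of F, and 95% intervals use it. Levels are CPM, or CPM per kb of merged exons. Ratios were tested by exact permutation of libraries (scipy 1.17.1). Alternatives used DESeq2 1.42.0, limma 3.58.1, other scalings, blocks and left-out libraries. Counting limits cover counting error only. No libraries of a group were duplicates (chi-square over degrees of freedom, 17.3 to 49.5 for each pair). Same-numbered libraries shared a litter per the labels, and their deviations from the group means correlated at -0.02 to 0.20. The edgeR step was tested on simulated data.

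Members and gene lists were chosen with earlier results of these data known. Genes named were all members, up to 3 called genes per pathway list with the smallest adjusted p, the 3 markers of highest CPM per cell type list (1 such list is not reported here), the 3 genes most correlated with the member that rose most and with the one that fell most, and exceptions stated in the text.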

Additional observations from a re-analysis of the deposited data

Results flagged for a closer look

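Of 62 groups of 5 libraries checked for a library standing apart by Dixon's criterion, which chance meets in about 1 group in 20, 1 did. Tgfbi was at 106.8 CPM in control 3, and the other controls held 58.6 to 67.0 CPM.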

How the results depend on the processing

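Over 21 alternatives, Tgfb2, Tgfb3, Tgfbr1 and Tgfbi kept their direction and call, and Inhba did in 20. The members called lower numbered 4 to 6. No member was called higher (0, against 1) without litter A, with controls lacking Cre only, without the libraries with high Xist (an alternative chosen after seeing the data), and in 4 of the 10 fits that left out 1 library (0 to 1). Without litter A, 4023 genes were called, against 7245, and the pathway lists held 6 higher and 16 lower, with fewer libraries in the fit. Leaving out 1 library gave 6279 to 7028 called genes. The Tgfb2 share changed by -8.22 points without litter A (adjusted p = 0.300), by -8.96 with the replicate block (0.188) and by -8.89 with controls lacking Cre (0.107), and by -10.1 to -7.35 without 1 library. The Tgfbr2 to Tgfbr1 ratio changed by 0.33, 0.47 and 0.44 in the same settings with the same adjusted p, and by 0.40 to 0.53 without 1 library. The first 2 settings cannot give a p under 0.10 and 0.0625. With controls lacking Cre, the Tgfbr2 to Tgfbr1 ratio of every knockout stayed above that of every control. The replicate block, with numbers that share a litter, ended the calls of Smad2, Acvr2a and Zfyve9 and of no other member or pathway gene named by the rule. It was not examined gene by gene for markers, for genes singled out after their values were seen, or for the genes most like Tgfb1 and Inhba. Tgfbr3, never called, was at 0.039 with library size only, 0.0034 and 0.0033 with the replicate block by number and by litter, 0.0043 with limma, 0.067 without litter A, 0.061 with controls lacking Cre and -0.12 to 0.043 without 1 library. The Smad3 to Smad2 ratio changed by -0.081 to 0.021 without 1 library. At this depth, the filter leaves 7 of the 79 pathway genes untested.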
